A study of Rattus norvegicus with 20 samples.

Results

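The *Pnma* family descends from the gag gene of retrotransposons, and 4 of its members were examined here in the medial prefrontal cortex (mPFC) of rats, namely *Pnmal1*, *Pnmal2*, *Pnma1* and *Pnma2*. They were taken by symbol from the 31038 rows of the deposited count matrix, all 4 were present, and all 4 passed the filter on low counts, as 16605 genes did. The family was picked because *Pnmal1* was among the strongest increases in LSD-treated rats, so the fold change of *Pnmal1* is given below as a description without a test. The other 3 members were taken for their family name. The 20 rats were male Sprague-Dawley animals aged 6 to 8 weeks at the start according to the sample labels, each housed in its own cage and each giving 1 library. Of these, 10 received LSD at 0.16 mg/kg and 10 received sterile saline, in both cases by intraperitoneal injection every other day for 90 days. According to the series description, tissue was collected 3 weeks after the last injection, while the study's methods give a somewhat later time and an older age for all rats. The tissue came from 1 hemisphere of frozen brain, the treatment had been proposed in earlier work as a rat model of schizophrenia, and the rats were all male and from 1 outbred stock.

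Domesticated gag genes are copies of the structural gene of long terminal repeat retrotransposons that mammals have kept for functions of their own. The retroviral Gag protein assembles into a shell around RNA, and some of its descendants still form capsid-like particles. *Arc*, an immediate early gene of synaptic plasticity, is the best known of them in neurons. The Pnma proteins are named after paraneoplastic Ma antigens, because antibodies against Ma1 and Ma2 arise in patients whose tumours express these normally neuronal proteins and whose nervous system is then attacked. *Pnma1* encodes Ma1 and *Pnma2* encodes Ma2. *Pnmal1* and *Pnmal2*, now called *Pnma8a* and *Pnma8b*, are less studied relatives that lie close together in the genome.

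In the GRCr8 annotation, *Pnmal1* and *Pnmal2* lie on chromosome 1, *Pnma1* on chromosome 6 and *Pnma2* on chromosome 15. RefSeq start-site windows, which run from 250 bases before the transcription start to 50 bases after it, were at hand for 3 of the members, all but *Pnma2*. The stretches printed below are those in which the 3 windows had most letters in common at a width of 12, with both strands searched. They share 9 of the 12 letters, spelled GTTNCNATGGNG, which resemble the X box, the element that RFX transcription factors bind. This sharing was looked for after the windows had been read, and how far the stretch stood out depended on the width. Of 7 widths tried, it was the sole best match at 12 and at 14, was 1 of 9 equally good matches at 10, 3 of 24 at 11 and 3 of 9 at 16, and was not among the best at 8 and 9. The width of 12 was taken after these outcomes were known. The letters are present in 184 of 33469 windows (0.55%). The stretches are given in the direction in which the shared letters read, with those 12 positions in capitals, so that the members can be compared. They come from GRCr8, at chr1:86767422-86767501 on the plus strand for *Pnmal1*, chr1:86750281-86750360 on the plus strand for *Pnmal2*, and chr6:109515285-109515364 on the plus strand for *Pnma1*, which is itself transcribed from the minus strand.
Pnmal1: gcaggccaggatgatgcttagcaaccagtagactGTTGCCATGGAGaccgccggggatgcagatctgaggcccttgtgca
Pnmal2: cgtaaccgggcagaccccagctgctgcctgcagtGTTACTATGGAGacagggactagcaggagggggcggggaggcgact
Pnma1: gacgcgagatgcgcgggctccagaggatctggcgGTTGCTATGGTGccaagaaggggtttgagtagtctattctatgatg
The centre of the shared letters lies 51 bases before the start of *Pnmal1*, 126 before that of *Pnmal2* and 157 before that of *Pnma1*. The *Pnmal1* window has 51.7% G and C and 7 CpG pairs, which are also the medians of all windows, against 66% and 21 in *Pnmal2* and 61% and 22 in *Pnma1*. It alone holds TATAAA, which 14.2% of all windows do, and it lacks the GC box GGGCGG, which is present in the other two and in 33.1% of all windows. None of the 3 windows holds the E box CACGTG, the cAMP response element TGACGTCA or CCAAT. Of the 72 tested genes whose window holds the shared letters, 6.94% were called higher in LSD-treated rats, against 6.95% of the 12061 without them, and their median log2 fold changes were -0.016 and -0.0035. The members are among the former, and without them 5.8% of the other 69 were called higher, with a median of -0.028. A match to these letters is a description of the sequence and not evidence that a factor binds there.

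*Pnmal1*, less studied than the antigen genes, was the member for which the family was chosen. Values here are TMM-normalised RPM, that is reads relative to the library total after edgeR's TMM scaling, which brings libraries to a common level. *Pnmal1* ranged from 98.1 to 126 RPM in LSD-treated rats, with a median of 114, and from 81.1 to 104 in controls, with a median of 89. The groups overlapped at 1 rat, since 9 of the 10 LSD-treated rats lay above the highest control, while LSD rat 1, at 98.1, lay below saline rats 2 and 10. The means were 114 ± 8.52 RPM (SD, n = 10) and 91 ± 7.43 (SD, n = 10), which rest on 915 to 3022 reads per rat. The log2 fold change was 0.33 with a standard error of 0.0531, or 1.25-fold. By p-value *Pnmal1* ranked 2 among the genes higher in LSD-treated rats. This rank is not a finding, since the family was chosen because *Pnmal1* was among the strongest increases. Complete separation of the groups upwards was seen in 18 of the 16605 genes (0.108%), and *Pnmal1* missed it by its 1 low rat. All 10 LSD-treated rats exceeded the control median, as they did in 8.29% of genes. In bulk tissue such as this, a change in the number of cells of a type and a change in RNA per cell cannot be told apart. This holds for every value above and below.

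**Figure D1:**
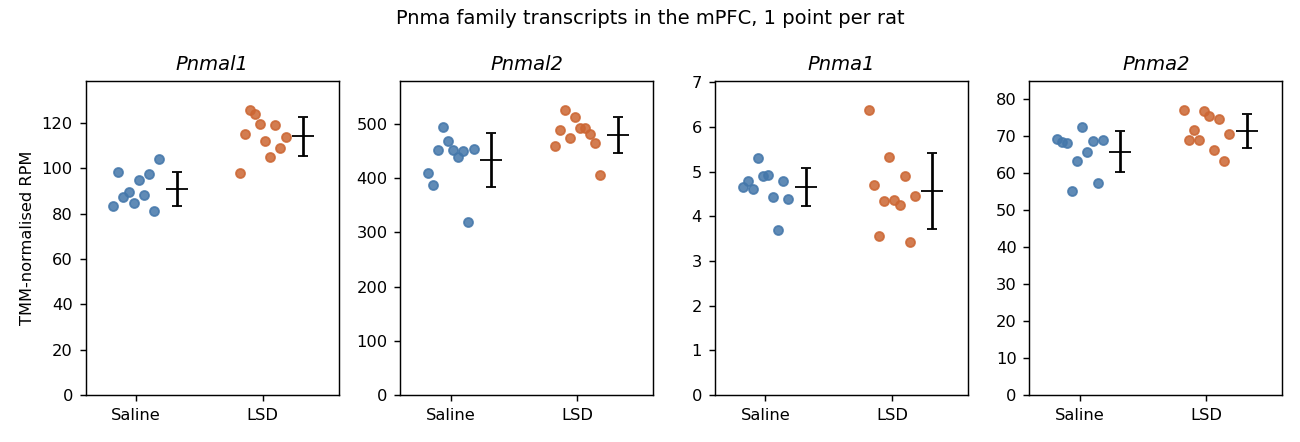
TMM-normalised RPM (vertical axes, each from 0) of the 4 members in saline-treated and LSD-treated rats, with 1 point per rat and the mean ± SD of 10 rats beside each group. The *Pnmal1* points of 9 LSD-treated rats lie above the highest control at 104, whereas the groups overlap broadly for *Pnma1*.

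*Pnmal2*, the neighbour of *Pnmal1* and the most read of the 4 members, had 407 to 527 RPM in LSD-treated rats (median 486) and 319 to 495 in controls (median 452). The groups overlapped over most of this range, and only LSD rats 3 and 5 exceeded the highest control. Saline rat 9 was the lowest of all 20 rats, at 319, and the next control was at 388. The means of 481 ± 33 and 433 ± 49.8 RPM (SD, n = 10 each) gave a log2 fold change of 0.15 (standard error 0.0642), and 9 LSD-treated rats of 10 exceeded the control median. This difference did not pass the threshold (adjusted p = 0.113, edgeR, with Benjamini-Hochberg adjustment over all genes tested).

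*Pnma2*, the Ma2 antigen gene, whose protein can assemble into capsid-like particles, had 63.3 to 77.2 RPM in LSD-treated rats (median 71.2) and 55.3 to 72.4 in controls (median 68.3). LSD rats 1, 5, 6 and 8 exceeded the highest control, and saline rats 4 and 9 were the lowest of all. With means of 71.4 ± 4.65 and 65.7 ± 5.53 RPM (SD, n = 10 each), the log2 fold change was 0.12 (standard error 0.0524), and it did not pass the threshold either (edgeR, adjusted p = 0.125). Here 8 LSD-treated rats of 10 exceeded the control median.

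*Pnma1*, the Ma1 antigen gene, was read far less often, with 53 to 124 reads per rat. It had 3.43 to 6.39 RPM in LSD-treated rats (median 4.42) and 3.7 to 5.31 in controls (median 4.72). The range of the LSD-treated rats enclosed that of the controls, with rats 3 and 9 below the lowest control and rats 1 and 5 above the highest. The means were 4.57 ± 0.849 and 4.65 ± 0.428 RPM (SD, n = 10 each). The log2 fold change of -0.025 (standard error 0.0991, edgeR, adjusted p = 0.894) was smaller than its error, and its sign turned under other scalings, to 0.017 with total counts and 0.073 with the gene-span offsets described below.

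Thus none of the 3 relatives of *Pnmal1* passed the threshold with edgeR, where 6.49% of all genes tested were called higher and 8.54% lower, or 15.0% in all. At an unadjusted p under 0.05, *Pnmal2* and *Pnma2* were counted, 2 of the 3, and 14.4% of all genes were higher at that level. DESeq2 gave the same counts of 0 and 2, beside 8.75% of genes called higher and 11.2% lower and 14.3% higher at an unadjusted p under 0.05, with adjusted p-values of 0.10 for *Pnmal2*, 0.119 for *Pnma2* and 0.883 for *Pnma1*. Whether *Pnmal1* differs from its relatives in its response was not tested, since *Pnmal1* was selected on that response.

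Reads of one member relative to another within a rat do not depend on how libraries are scaled. For each read of *Pnmal1* there were 3.56 to 4.7 reads of *Pnmal2* in LSD-treated rats (median 4.27) and 3.93 to 5.54 in controls (median 4.84), and all 10 LSD-treated rats lay under the control median. *Pnmal1* had 1.27 to 1.79 reads per read of *Pnma2* in LSD-treated rats (median 1.61) and 1.21 to 1.62 in controls (median 1.38), with 9 LSD-treated rats of 10 exceeding the control median. LSD rat 1 was the exception in this ratio, at 1.27. *Pnmal2* had a median of 6.78 reads per read of *Pnma2* in LSD-treated rats and 6.58 in controls, with ranges of 5.76 to 7.45 and 5.59 to 8.95. Here 6 LSD-treated rats of 10 exceeded the control median. Per read of *Pnma1*, the medians in LSD-treated rats and controls were 25.1 and 19.2 for *Pnmal1*, 107 and 94.4 for *Pnmal2*, and 15.7 and 14.7 for *Pnma2*. In these, 9, 8 and 7 LSD-treated rats of 10 exceeded the control median. The ratios that involve *Pnmal1* carry the same selection as its fold change.

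**Figure D2:**
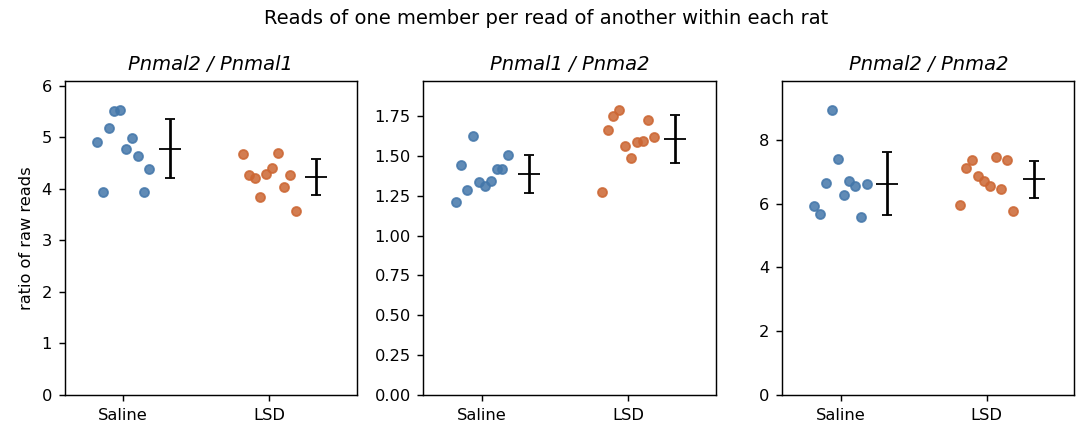
Ratio of raw reads of a pair of members within each rat (vertical axes, each from 0), with 1 point per rat and the mean ± SD of 10 rats per group. All 10 LSD-treated rats lie below the control median of 4.84 for *Pnmal2* to *Pnmal1*, and the groups lie over each other for *Pnmal2* to *Pnma2*.

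The spread between rats of the same group, with counting error included, was at most 11.5% for 3 of the members. The coefficient of variation was 7.46% in LSD-treated rats and 8.17% in controls for *Pnmal1*, 6.87% and 11.5% for *Pnmal2*, and 6.51% and 8.42% for *Pnma2*. *Pnma1* varied by 18.6% in LSD-treated rats and 9.2% in controls, the larger value including LSD rat 1 at 6.39 RPM. edgeR's biological coefficient of variation, which sets aside counting error, was 0.0876 for *Pnmal1*, 0.105 for *Pnmal2*, 0.126 for *Pnma1* and 0.0852 for *Pnma2*. Among the 500 genes nearest in level to each, 17.2% had a lower value than *Pnma1*, 25.4% than *Pnmal1*, 29.4% than *Pnma2* and 41% than *Pnmal2*. For its level, *Pnma1* thus had the lowest standing of the 4 members. The value of *Pnmal1* may be tied to its choice, since a choice by p-value would favour a low spread.

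No correlation between members from rat to rat passed the threshold. After each group's mean was subtracted, log2(RPM + 1) of *Pnmal1* and *Pnmal2* had a Pearson's r of 0.341 (permutation p = 0.162, adjusted p = 0.404 over the 6 pairs of members) and a Spearman's rho of 0.329 (permutation p = 0.165, adjusted p = 0.603) over the 20 rats. Which 2 rats were left out decided how far r moved. Without the 2 rats whose uncentred *Pnmal1* level was farthest from its median, LSD rat 3 and saline rat 9, r was 0.0214, and without the 2 farthest after centring, LSD rat 1 and saline rat 10, it was 0.304. Of all genes kept, 15.9% had a higher r to *Pnmal1* than its neighbour did. For *Pnmal1* and *Pnma2*, r was 0.308 (permutation p = 0.202) and rho 0.248 (permutation p = 0.302), and for *Pnmal1* and *Pnma1* r was -0.373 (permutation p = 0.109) and rho -0.185 (permutation p = 0.447). Without LSD rat 3 and saline rat 9, r was 0.189 for the former pair and -0.284 for the latter. Without LSD rat 1 and saline rat 10, the values were 0.489 and -0.0706. The remaining pairs had r from -0.0696 to 0.203 (adjusted permutation p from 0.404 to 0.726 over all pairs). *Pnma1* and *Pnma2* had an r of 0.721 within the LSD-treated rats and -0.478 within the controls, and of -0.151 over all rats once LSD rats 1 and 9 were left out. The difference between the groups in this r was not tested.

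The genes whose rat-to-rat pattern was most like that of *Pnmal1*, by the same measure over the 20 rats, were *Cep162*, a centriole protein gene (r = 0.818), *Csnk1g1*, a casein kinase gene (r = 0.79), *Zfp483*, a zinc finger gene (r = 0.783), *Nup160*, a nuclear pore gene (r = 0.78), and *LOC103691668* (r = 0.772). Their rho values lay between 0.732 and 0.794. The median r to *Pnmal1* over all genes was 0.0228, and 38 genes (0.229%) exceeded 0.7. *Pnmal2* was most like *Fam120b* (r = 0.903), *Ikbkap* (r = 0.902) and *Abcc1* (r = 0.9), with lower rho values of 0.711, 0.608 and 0.701, and 542 genes (3.26%) exceeded an r of 0.7 to it. *Pnma2* was most like *Pcyox1* (r = 0.881), *Rbsn* (r = 0.866) and *Zfr* (r = 0.862). *Pnma1* was most like *LOC500227* (r = 0.779), *Pstpip1* (r = 0.763) and *LOC100911027* (r = 0.732), and only 4 genes exceeded 0.7. These are the highest values among all genes kept and are given as a description, since all genes of a rat share its library and depth.

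Short genes tended to be lower in LSD-treated rats, and the members are short. They span 7643 bases (*Pnmal1*), 4766 (*Pnmal2*), 1786 (*Pnma1*) and 8896 (*Pnma2*) in GRCr8, which had an entry for 89.8% of the genes tested and stands in here for the rn6 genome the reads were aligned to. Among the 3634 genes that span 1000 to 10000 bases, the median log2 fold change was -0.11, against 0.0022 over all genes, 1.35% were called higher and 18.5% lower. The fold change of *Pnmal1* was exceeded by 125 of these genes (3.44%), against 6.47% of all genes tested. Of the 384 genes in this range with at least its level, *Pnmal1* ranked 4 by log2 fold change, and it ranked 21 of the 2162 genes of any span with at least its level. These shares and ranks are a description only, since *Pnmal1* was picked for its rise in this same contrast.

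**Figure D3:**
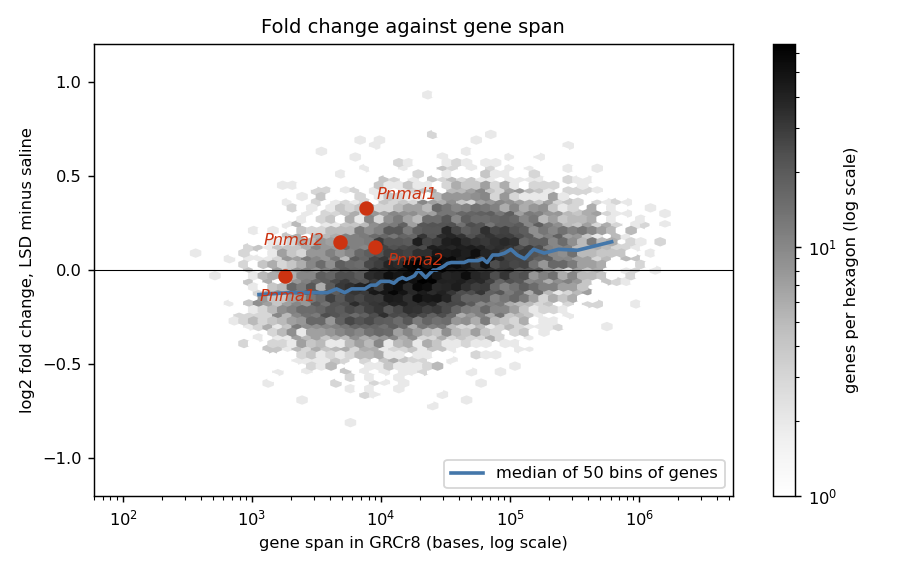
Log2 fold change between LSD-treated and saline-treated rats (vertical axis) against gene span in bases on a log scale (horizontal axis) for the 14908 tested genes with a GRCr8 entry, shaded by number of genes, with the median of 50 bins as a line and the 4 members in red. *Pnmal1* at 0.33, *Pnmal2* at 0.15 and *Pnma2* at 0.12 lie above the median line, which is below 0 at their spans. *Pnma1*, at -0.025, also lies above -0.11, the median of all genes that span 1000 to 10000 bases.

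When each rat's trend with gene span was removed by centred offsets, *Pnmal2* reached a log2 fold change of 0.23 (edgeR, adjusted p = 0.0395) and *Pnma2* of 0.18 (adjusted p = 0.0473), so that both passed the threshold, which 4.21% of genes did upwards under these offsets and 6.55% downwards, or 10.8% in all. Here *Pnmal1* stood at 0.40 and *Pnma1* at 0.073 (adjusted p = 0.663). Libraries of LSD-treated rats were also larger, with 16346629 to 25552681 reads on genes against 11098076 to 24201351 in controls. With library size as a covariate, the log2 fold change was 0.27 for *Pnmal1*, 0.23 for *Pnmal2* (adjusted p = 0.048), 0.13 for *Pnma2* (adjusted p = 0.181) and 0.05 for *Pnma1* (adjusted p = 0.812), and 3.22% of genes were called higher and 3.85% lower, or 7.06% in all. With scaling by total counts, *Pnmal2* (0.20, adjusted p = 0.0319) and *Pnma2* (0.16, adjusted p = 0.0422) passed the threshold, which 9.04% of genes did upwards and 5.17% downwards, or 14.2% in all. The calls of *Pnmal2* and *Pnma2* thus turned on the setting, while their direction did not under any setting tried.

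**Figure D4:**
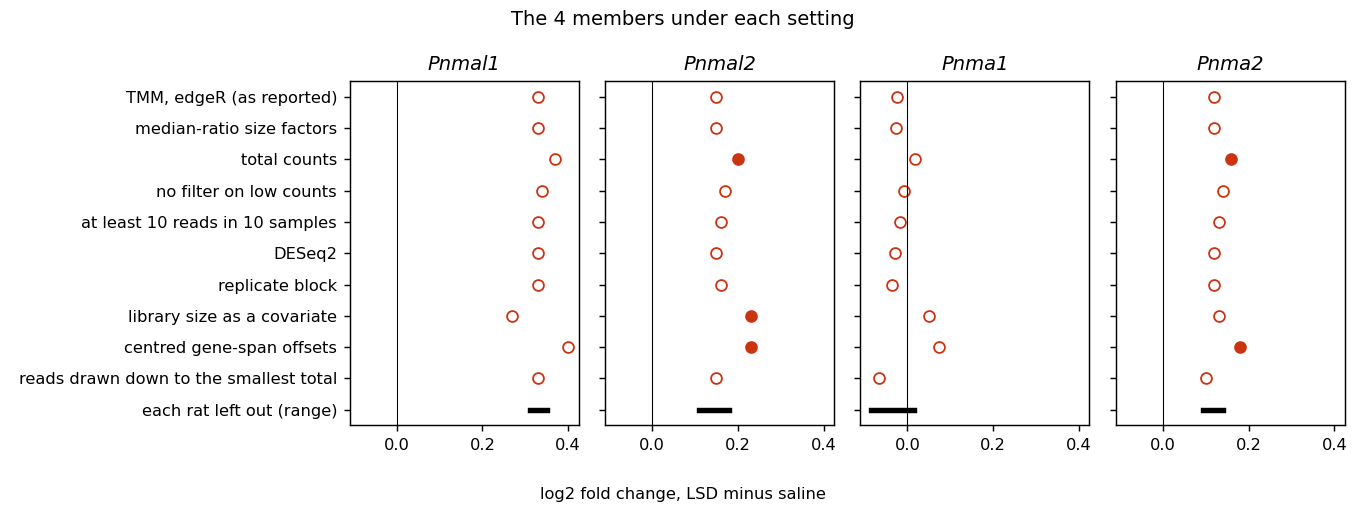
Log2 fold change between LSD-treated and saline-treated rats (horizontal axes) of the 4 members under 10 settings (circles) and over 20 fits with each rat left out (black bars, lowest to highest). Filled circles mark an adjusted p under 0.05, which is not shown for *Pnmal1*. *Pnmal1* lies between 0.27 and 0.40, and *Pnma1* on both sides of 0.

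Next, the other domesticated gag genes were examined from a list of 21 entries. Of these, 15 were matched by symbol in the matrix and 13 passed the filter, while *Pnma5* and *Zcchc5* had no more than 2 reads in any rat. With edgeR, none of the 13 was higher in LSD-treated rats and 2 were lower at an adjusted p under 0.05 (15.4%, against 8.54% of all genes tested). The median log2 fold change was -0.013, beside 0.0022 over all genes. It was 0.033 with total counts (0.047 over all genes), 0.039 with the span offsets (-0.0027) and 0.016 with library size as a covariate (-0.012). Reads drawn down, no filter and the filter of 10 reads gave 0.062, 0.0048 and 0.0033. DESeq2, median-ratio scaling and the replicate block gave -0.016, -0.016 and -0.03. The 2 lower genes were *Moap1* and *Fam127b*. *Moap1*, a Pnma family gene whose protein binds Bax and promotes apoptosis, had 8.19 ± 1.32 RPM in LSD-treated rats and 10.9 ± 2.09 in controls (SD, n = 10 each), a log2 fold change of -0.41 (standard error 0.108, edgeR, adjusted p = 0.0165). The ranges of 6.68 to 11.1 and 7.97 to 14.2 RPM overlapped, and 1 LSD-treated rat of 10 exceeded the control median. *Fam127b*, which descends from another retrotransposon lineage and is now called *Rtl8b*, had 67.8 ± 5.57 and 79.9 ± 8.28 RPM (SD, n = 10 each) and a log2 fold change of -0.24 (edgeR, adjusted p = 0.0121). With library size as a covariate neither passed the threshold (adjusted p = 0.224 for *Moap1* and 0.0911 for *Fam127b*), and the span offsets left *Fam127b* at an adjusted p of 0.071.

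The remaining gag-derived genes did not pass the threshold. *Pnma3*, a further antigen gene of the family, had 33.1 ± 3.98 and 30.8 ± 5.37 RPM (SD, n = 10 each) in LSD-treated rats and controls and a log2 fold change of 0.11 (edgeR, adjusted p = 0.458). With library size as a covariate it was 0.31 and passed the threshold (adjusted p = 0.0301). This gene is named after its values were seen. For *Zcchc18*, a zinc knuckle gene of the same family, it was 0.12 (adjusted p = 0.249), which became 0.22 with the span offsets (adjusted p = 0.045). *Zcchc16* had 0.17 (adjusted p = 0.238) and *Ldoc1l*, now *Rtl6*, -0.11 (adjusted p = 0.153). *Arc*, the synaptic capsid gene, ranged from 184 to 603 RPM in LSD-treated rats and from 98.7 to 650.0 in controls, and its log2 fold change of 0.11 was below its standard error of 0.244 (adjusted p = 0.809), and it was -0.0045 without saline rat 1.

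**Figure D5:**
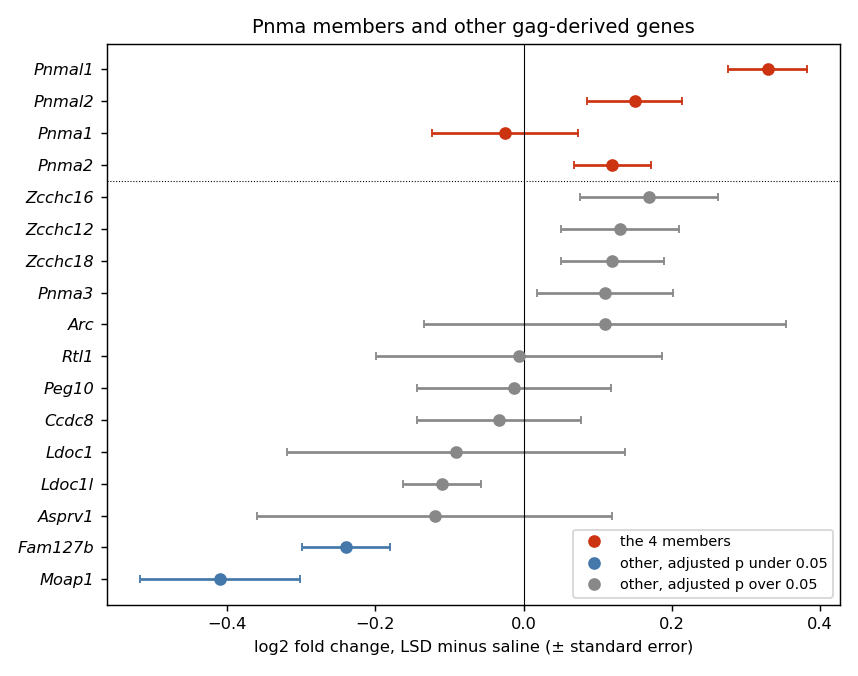
Log2 fold change between LSD-treated and saline-treated rats with its standard error (horizontal axis) for the 4 members and the 13 other gag-derived genes that were tested. *Moap1* at -0.41 and *Fam127b* at -0.24 are the 2 other genes with an adjusted p under 0.05, and *Pnmal1* at 0.33 has the highest value.

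A further list held 24 other neuronal antigens of paraneoplastic antibodies, 23 of which passed the filter. Of these, 3 were higher (13.0%, against 6.49% of all genes) and 3 lower (13.0%, against 8.54%). The median log2 fold change was 0.0026. The higher genes were *Amph*, the endocytic adaptor amphiphysin (log2 fold change 0.31, edgeR, adjusted p = 0.00992), *Itpr1*, the IP3 receptor of the endoplasmic reticulum (0.27, adjusted p = 0.0189), and *Gad2*, a GABA-synthesising enzyme (0.23, adjusted p = 0.0368). Of the 3 markers of inhibitory neurons *Gad2* was higher and *Slc32a1*, the vesicular GABA transporter, was lower. The lower genes were *Homer3*, a postsynaptic scaffold (-0.33, adjusted p = 0.00676), *Elavl3*, a neuronal RNA-binding protein (-0.19, adjusted p = 0.0404), and *Trim46*, which organises axonal microtubules (-0.20, adjusted p = 0.0496). None of the 3 higher genes passed the threshold with the span offsets (adjusted p from 0.0603 to 0.08), where *Homer3*, *Elavl3* (adjusted p = 0.0305) and *Dner*, a Notch-related receptor gene (-0.30, adjusted p = 0.0204), were lower. With a rat left out, *Gad2* lost its call in 11 of 20 fits, *Elavl3* in 14 and *Trim46* in 16. With library size as a covariate, *Elavl3* was at -0.064 and *Trim46* at -0.05. The median of the 23 antigens was then 0.17, beside -0.012 over all genes. In that fit 4 were higher (17.4%, against 3.22% of all genes) and 2 lower (8.70%, against 3.85%). Those 4 included *Itpr1* (0.34, edgeR, adjusted p = 0.0292) but neither *Amph* (0.22, adjusted p = 0.0734) nor *Gad2* (0.20, adjusted p = 0.128). *Homer3* was still called lower there (-0.28, adjusted p = 0.0393). The antigens that did not pass without the offsets included *Dner* (-0.20, adjusted p = 0.116; 0.0394 without saline rat 9) and *Elavl2*, a further neuronal RNA-binding protein gene (0.20, adjusted p = 0.126; 0.0218 without saline rat 2).

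The genes next to the members in the GRCr8 annotation were examined next. Over all genes tested, 6.49% were called higher and 8.54% lower. Among the 5 annotated genes on either side of *Pnmal1*, 5 genes other than *Pnmal2* were tested, of which none was higher and 1 was lower. Their median log2 fold change was -0.073. The lower gene was *Gng8*, a G protein gamma subunit (-0.51, edgeR, adjusted p = 0.00566). On one side the nearest tested gene after *Pnmal2* was *Calm3*, a calmodulin gene, with -0.073 (adjusted p = 0.304), and on the other side it was *Ccdc8*, a distant relative of the family, with -0.033 (adjusted p = 0.878), the sign of which turned to 0.062 under the span offsets. A further *Pnma* gene between *Pnmal1* and *Ccdc8*, *Pnma8c*, was not matched to a symbol of the matrix. Around *Pnma1*, the adjacent *Dnal1*, a dynein light chain gene, was higher (0.40, adjusted p = 0.0194), which with library size as a covariate was 0.19 and did not pass (adjusted p = 0.224), and *Elmsan1* on the other side did not pass (0.11, adjusted p = 0.414). Of the 6 tested neighbours of *Pnma2*, 1 was higher, *Adra1a*, an adrenergic receptor gene (0.50, adjusted p = 0.0177), and the adjacent *Dpysl2* and *Bnip3l* had adjusted p-values of 0.775 and 0.978.

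Neuronal markers were present in every rat. They summed to between 4845 and 5965 RPM, scaled by total counts, and those of excitatory neurons to between 3332 and 4675, while choroid plexus markers summed to at most 5.01. Of the 6 neuronal markers 1 was lower in LSD-treated rats (*Tubb3*), and none of the 4 excitatory ones was called. Of all genes tested, 8.54% were called lower and 6.49% higher. Markers of inhibitory neurons summed to 467 to 649 RPM in LSD-treated rats and 504 to 678 in controls, and those of astrocytes to 2051 to 2982 and 1814 to 2741, with 1 of 6 higher (*Slc1a2*). Oligodendrocyte markers spanned 2321 to 5967 RPM in LSD-treated rats and 2136 to 7751 in controls, their log2 fold changes having a median of -0.35, and markers of striatal neurons, a neighbouring region, 130.4 to 318 and 137 to 419, with a median of -0.73. None of these markers, 6 and 4 in number, was called. Their part in the differences of the *Pnma* genes was not tested.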

How the data were processed

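RNA from the mPFC of 20 rats, 10 per group by sample label, was sequenced after poly(A) selection. The deposited values are raw counts per gene, which the authors obtained with HTSeq-count from TrimGalore-trimmed reads that Hisat2 had aligned to rn6, and they carry no normalisation. Versions, annotation and strand setting are not given in the sources used here, so reads of overlapping or antisense genes cannot be told apart. The 5 unnamed rows at the end of the matrix hold 25.5% to 29% of its counts per rat and were left out, and 2 rows that repeat a date-like symbol were kept apart. Library totals over named genes lay between 11098076 and 25552681 reads, and no 2 libraries were identical. The spread between rats sets the precision of each comparison.

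The filter of the study was used, which asks for 5 or more reads in 10 or more libraries. Groups were compared with edgeR (version 4.0.16, R 4.3.3; TMM, quasi-likelihood F test, Benjamini-Hochberg adjustment over all genes tested, threshold 0.05), and the script was tested on simulated data. The standard error is the log2 fold change over the root of the F statistic. The study used DESeq2, which was an alternative here (version 1.42.0), beside median-ratio and total-count scaling, no filter or at least 10 reads, the replicate number as a block, library size as a covariate, reads drawn down to 11098076 per rat, each rat left out, and centred offsets for gene span (50 bins, smoothed over 5). Correlations used log2(RPM + 1) centred within groups and 100000 two-sided permutations within groups (numpy 2.4.6, scipy 1.17.1).

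Named genes are the members, list genes past the threshold, the 3 list genes of smallest p among the others, the 5 genes most like *Pnmal1* and 3 most like each other member, and the nearest or called neighbours. Of the list genes, 1 that the rule names is not reported here. The members and lists were chosen with earlier results of these data known. The letters shared by the start-site windows were sought at 7 widths from 8 to 16, and 12 was taken with the outcomes known. Windows and gene names come from RefSeq on GRCr8, where all 4 members matched by symbol or synonym. Protein sequences were not used here.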

Additional observations from a re-analysis of the deposited data

How the results depend on the processing

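*Pnmal1* was higher in LSD-treated rats under all 29 alternatives, with a log2 fold change of 0.27 to 0.40 under the 9 settings and 0.31 to 0.35 with each rat left out. These values are a description only, since *Pnmal1* was picked for its rise in the same rats. *Pnmal2* passed the threshold with total counts (0.20), library size as a covariate (0.23) and centred gene-span offsets (0.23) but in none of the fits without a rat (0.11 to 0.18), and *Pnma2* with total counts (0.16) and the offsets (0.18) but in none of the fits without a rat (0.094 to 0.14). *Pnma1* turned positive with total counts (0.017), library size as a covariate (0.05) and the offsets (0.073), and with each rat left out it ranged from -0.085 (LSD rat 1) to 0.015 (LSD rat 9). The causes were not tested. Over all genes, 1077 were called higher and 1418 lower. Library size as a covariate left 534 and 639. The offsets gave 628 higher and 977 lower, total counts 1501 higher and 858 lower, and no filter 960 higher and 836 lower, with more genes tested. With each rat left out, 663 (without LSD rat 8) to 1669 (without saline rat 2) were higher and 957 to 1906 lower, and 706 were higher without saline rat 4.

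Among the other named genes, *Ccdc8* turned positive with total counts (0.015), the offsets (0.062) and reads drawn down (0.016) and ranged from -0.067 to 0.019 with each rat left out. *Calm3* was 0.00066 and *Dpysl2* -0.029 with the offsets, and *Bnip3l* was -0.11 with library size as a covariate, -0.0039 with reads drawn down and -0.026 to 0.034 with each rat left out. *Arc* ranged from -0.0045 to 0.22 with each rat left out. Of 666 values of these and the other list and neighbour genes named, 23 genes in all, 582 kept direction and side of the threshold, 61 lost the call, 5 gained it and 18 changed sign.

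The main fit did not take the replicate numbers as pairs, and whether they mark pairs was not settled. Of 10 same-numbered pairs 6 correlated over 0.1, a count not made for pairs of different number. The mean r of same-numbered pairs was 0.145, against -0.0157 for pairs of different number, and 1 of 10 LSD-treated rats correlated best with its own number. With the replicate block, 1355 genes were higher and 1605 lower, no call of a member changed, and the log2 fold changes were 0.33, 0.16, -0.037 and 0.12 for *Pnmal1*, *Pnmal2*, *Pnma1* and *Pnma2*. No correlation between members passed under any alternative with a test. The choice of the 2 rats left out after centring was added after seeing the data, and turned r, with no test, to -0.301 for *Pnmal2* and *Pnma2* and to -0.151 for *Pnma1* and *Pnma2*. That of *Pnmal2* and *Pnma2* was -0.172 with the block and -0.228 to 0.456 with each rat left out, that of *Pnma1* and *Pnma2* was -0.000798 with the block, and that of *Pnmal2* and *Pnma1* was -0.166 to 0.0262 with each rat left out. *Pnma1*, at 53 to 124 reads per rat, is the member whose depth limits what could be seen.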
